A study of Mus musculus with 4 samples.

Results

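Kupffer cells are the resident macrophages of the liver. 8 genes that mark them were followed in hepatocyte preparations of mice that lack Pnpt1 in the liver (HepKO) and of wild-type (WT) mice: Clec4f, Timd4, Vsig4, Cd5l, Marco, Adgre1, Csf1r and Cd163. A probe counted for a gene if its RefSeq accession, without the version, belonged to that gene in the annotation used. 7 of the 8 genes had such a probe, 8 probes in all, out of 16358 genes that were named on the array. For Csf1r, the receptor for the growth factor CSF1, no probe could be named through that annotation, which does not show that the array lacks one, and Csf1r was not analysed here.

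4 two-colour Agilent arrays compared 2 pairs of C57BL/6J mice. Per the labels, the HepKO genotype was Albumin-Cre/wt Pnpt1 fl/fl, so that Cre was driven in hepatocytes, in mice bred from neo-fl/neo-fl parents. The WT partners were Pnpt1 fl/fl and had no Cre. One HepKO mouse and its WT littermate were labelled male and aged 12.29 weeks (12.9 in other label fields). The other HepKO mouse and its WT littermate were labelled female and aged 4.29 weeks. Each pair was run on 2 arrays with the same extracts and exchanged dyes, which together make 1 replicate, and n = 2 pairs for every mean. RNA came from the pelleted cells of collagenase-perfused livers, and the protocols name no sort, so that other liver cells could be in the pellet. Cre was not driven in macrophages, so the labels describe no deletion in the Kupffer cells themselves.

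Kupffer cells sit in the sinusoids, where they take up bacteria, dying cells, old red cells and complement-coated particles from the blood. In mice most of them arise before birth, renew in place and depend on CSF1 for survival. Clec4f is used as a marker of Kupffer cells and Timd4 as a marker of long-resident ones, whereas Adgre1 is shared by most tissue macrophages of the mouse. Marco, Cd163 and Cd5l all carry scavenger receptor cysteine-rich (SRCR) domains.

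The pairs did not match their sex labels. Xist, transcribed from the inactive X chromosome, exceeded background in both genotypes of the male-labelled pair only, and 3 Y-linked genes (Kdm5d, Ddx3y and Eif2s3y) in both genotypes of the female-labelled pair only. The pairs keep their label names here, and every ratio was taken within a pair. Each pair had a slide of its own, so differences between pairs in sex, age or slide cannot be told apart. Both pair values stand beside the mean of each Kupffer marker. For most other genes and lists only the value over both pairs is given. Per array and genotype, 46.4% to 57.0% of 41174 probes exceeded background. Pnpt1 itself, which encodes a mitochondrial exoribonuclease that processes RNA, had a log2 ratio of -0.10 ± 0.20 at its brighter probe (adjusted p = 0.744) and of -0.52 ± 0.13 at the dimmer one (adjusted p = 0.0817 over 22426 probes). The deleted part of the gene was not given in the sources used here, so these probes may lie outside it and check nothing.

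The promoters of 4 of the genes are shown because these genes mark both ends of the range of ratios described below: Marco and Cd5l had the largest increases, Timd4 the smallest increase that passed, and Cd163 the only ratio below 0. Each line gives the 200 bases before the transcription start in the promoter table, read 5′ to 3′ on the strand of the gene, from RefSeq (GRCm38.p6). For Timd4 and Cd163 the annotated gene begins before that start, so the last bases shown lie inside the gene. Capitals mark matches, on either strand, to GGAAGT, the core of sites for the macrophage factor PU.1, or to TGCTGA, the core of MAF factor recognition elements, and the Marco and Cd163 windows hold neither.
Marco, chr1:120505025-120505224, minus strand: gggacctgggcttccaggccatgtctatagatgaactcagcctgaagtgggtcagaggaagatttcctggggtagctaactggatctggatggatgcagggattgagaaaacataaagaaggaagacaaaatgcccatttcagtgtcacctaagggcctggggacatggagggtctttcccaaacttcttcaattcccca
Cd5l, chr3:87357681-87357880, plus strand: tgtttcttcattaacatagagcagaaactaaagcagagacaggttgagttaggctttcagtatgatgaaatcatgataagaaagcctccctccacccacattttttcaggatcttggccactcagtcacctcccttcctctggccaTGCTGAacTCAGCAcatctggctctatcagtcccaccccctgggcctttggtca
Timd4, chr11:46810599-46810798, plus strand: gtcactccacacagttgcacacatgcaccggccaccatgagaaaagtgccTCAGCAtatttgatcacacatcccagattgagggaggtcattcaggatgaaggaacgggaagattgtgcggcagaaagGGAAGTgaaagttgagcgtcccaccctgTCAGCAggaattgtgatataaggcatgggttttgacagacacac
Cd163, chr6:124304451-124304650, plus strand: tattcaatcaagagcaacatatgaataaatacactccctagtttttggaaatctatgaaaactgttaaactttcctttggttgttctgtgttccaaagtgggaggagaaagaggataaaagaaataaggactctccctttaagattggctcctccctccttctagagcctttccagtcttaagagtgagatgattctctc
6 of the 8 genes had an entry in the promoter table (250 bases before to 50 after the start). The core GGAAGT was in 3 of the 6 (Clec4f, Timd4 and Vsig4), and in 23.8% of all 32851 promoters. TGCTGA was in 4 of the 6 (Cd5l, Clec4f, Timd4 and Vsig4), and in 19.5% of all promoters. The longer PU.1 sequence GAGGAAGT, which contains the core, was in none of the 6 and in 3.20% of all promoters. The interferon-stimulated response element was also in none of the 6 and in 3.44% of all promoters. Motifs were searched on both strands. A match is one of letters in a short window and does not show binding.

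6 of the 7 measured markers rose in HepKO preparations and none fell. Marco rose most, 19.1-fold, followed by Cd5l at 5.13-fold and Adgre1 at 3.06-fold. Vsig4 (2.51-fold), Clec4f (2.32-fold) and Timd4 (1.69-fold) rose less. Cd163 was below its WT partner on 4 of 4 arrays and did not pass the test. Calls were made at an adjusted p below 0.05 in a limma linear model over 11325 named genes, in which 11.3% of genes were called higher and 3.25% lower. All 7 markers were well above background in both genotypes on 4 of 4 arrays, so none entered the test through 1 genotype alone. Their median log2 ratio was 1.33, with 1.59 for the male and 1.07 for the female pair, against 0.084 for all genes tested. In preparations of this kind, more Kupffer cells in the pellet and more marker RNA per Kupffer cell cannot be told apart.

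**Figure D1:**
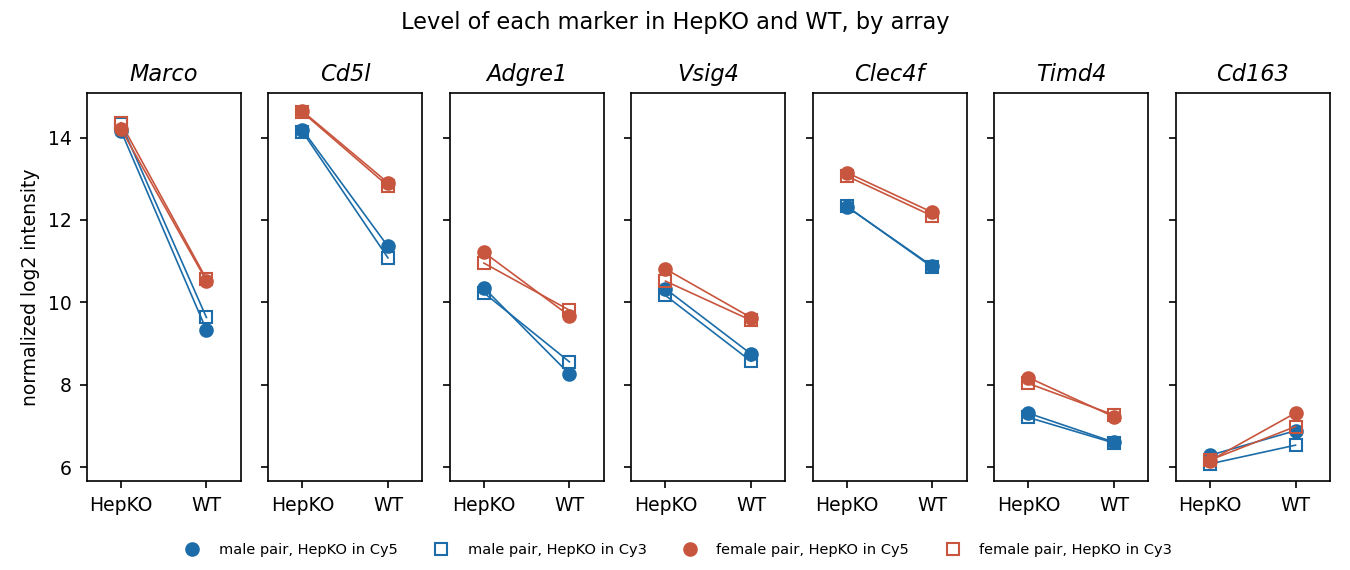
Normalized log2 intensity (vertical axis) of the 7 measured markers in HepKO (left in each panel) and WT (right), with a line for each of the 4 arrays. Circles are arrays with HepKO in Cy5 and open squares those with HepKO in Cy3, blue for the male and red for the female pair. For 5 markers every HepKO point lies above every WT point, for Timd4 this holds within each pair, and for Cd163 every HepKO point lies below every WT point. Of 10190 genes, 30.6% had every HepKO level above every WT level, and 16.9% had every HepKO level below.

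Levels below are log2 intensities after normalization, given as 2 arrays of the male and then 2 of the female pair. They are not compared between genes, because each probe has its own brightness. For 30.6% of genes every HepKO level lay above every WT level, so this order was not particular to the markers. A ratio is the log2 difference HepKO minus WT, averaged over 2 pairs, with the moderated SE after the ± sign, and adjusted p-values come from the limma fit.

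Marco encodes a scavenger receptor that binds bacteria and particles. Its level was 14.17, 14.34, 14.21 and 14.36 in HepKO, against 9.33, 9.63, 10.52 and 10.56 in WT. The HepKO values lay within 0.19 of each other across both pairs, while WT was higher in the female than in the male pair. The ratio was 4.26 ± 0.29 (adjusted p = 0.0150, 95% interval 3.44 to 5.08), with 4.77 for the male and 3.74 for the female pair. It ranked 28 of 11325 genes by ratio.

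Cd5l encodes AIM, a secreted SRCR protein of tissue macrophages that keeps macrophages from apoptosis. HepKO levels were 14.19, 14.14, 14.64 and 14.62, and WT levels were 11.36, 11.08, 12.90 and 12.82. The lowest HepKO value was 1.24 above the highest WT value. The ratio was 2.36 ± 0.33 (adjusted p = 0.0292), and the pairs differed most for this gene, with 2.95 for the male and 1.77 for the female pair.

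Cd163, the receptor for haptoglobin-bound hemoglobin, is also an SRCR protein, and its values ran the other way. It had 6.29, 6.08, 6.16 and 6.17 in HepKO, against 6.88, 6.53, 7.31 and 6.98 in WT. The genotypes did not overlap, which was so for 16.9% of genes in this direction and for 30.6% in the other. The ratio was -0.76 ± 0.18 (adjusted p = 0.0704), with -0.53 for the male and -0.98 for the female pair. The probe was dim. Mean spot signal less local background was 20.8, 19.5, 21.6 and 17.8 in HepKO, against 64.5, 28.6, 91.9 and 56.9 in WT, while an offset of 50 is added to each corrected signal before the ratio. With the scanner software's own log ratios, which add no such offset, Cd163 was at -2.49, -1.71, -3.33 and -2.67 on the 4 arrays, and it passed as lower with a mean of -2.55 (limma adjusted p = 0.0187, where 5.01% of genes were lower). The direction for Cd163 was the same in both, and the size and the call differed. Cd163 also passed as lower, with its ratio unchanged, when limma let the variance follow intensity (adjusted p = 0.0364). There 497 of all genes were lower, against 368 as reported. With the slide as a random block in limma Cd163 passed as well (adjusted p = 0.0132), and 1240 genes were lower. That fit enters each of the 4 arrays as an observation, although the 2 arrays of a pair hold the same extracts.

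Vsig4 encodes CRIg, the complement receptor with which Kupffer cells capture C3b-coated bacteria from the blood. It was at 10.33, 10.16, 10.81 and 10.51 in HepKO, and at 8.75, 8.57, 9.63 and 9.56 in WT. No HepKO value reached down to a WT value. Its ratio of 1.33 ± 0.19 (adjusted p = 0.0306) was made of 1.59 for the male and 1.07 for the female pair.

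Clec4f, a C-type lectin receptor found almost only on Kupffer cells in mice, had 12.32, 12.33, 13.15 and 13.06 in HepKO. WT had 10.87, 10.85, 12.18 and 12.09. Both genotypes were higher in the female pair, and the lowest HepKO value was 0.14 above the highest WT value. The ratio was 1.21 ± 0.19 (adjusted p = 0.0328), with 1.46 for the male and 0.97 for the female pair.

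Timd4 encodes TIM-4, a receptor for phosphatidylserine on dying cells. It had 7.31, 7.20, 8.17 and 8.03 in HepKO, and 6.60, 6.58, 7.22 and 7.26 in WT. HepKO was above WT on each array, but HepKO of the male pair overlapped WT of the female pair. The ratio was 0.76 ± 0.15 (adjusted p = 0.0488), with 0.66 for the male and 0.86 for the female pair. In this processing Timd4 alone among the 6 that rose had its larger value in the female pair. The order was not kept with the scanner software's log ratios, at 1.00 for the male and 0.97 for the female pair. This probe was also dim, with WT signal less local background of 46.8, 23.6, 85.3 and 71.8. Its call was lost without male pair replicate 2 (adjusted p = 0.0624), without female pair replicate 1 (0.0575) and without female pair replicate 2 (0.0503). In the limma fit over all 22426 probes its adjusted p was 0.0521.

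Adgre1 encodes the adhesion G protein-coupled receptor most used to stain mouse macrophages, and was the 1 marker with 2 probes. At the brighter probe it had 10.35, 10.23, 11.21 and 10.95 in HepKO, against 8.26, 8.55, 9.67 and 9.81 in WT. The genotypes did not overlap, and the ratio was 1.61 ± 0.19 (adjusted p = 0.0236), with 1.88 for the male and 1.34 for the female pair. The dimmer probe gave 0.71 ± 0.13, above 0 on 4 of 4 arrays but with an adjusted p of 0.0520 over 22426 probes. The probes thus had the same direction and different sizes, and the mean over both was 1.16. Signal less local background at the dimmer probe was 81.2, 117, 196.4 and 168.4 in HepKO and 34.4, 18, 68.1 and 57.8 in WT. It was above background in WT on 3 of 4 arrays, and the offset of 50 is large beside these signals.

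**Figure D2:**
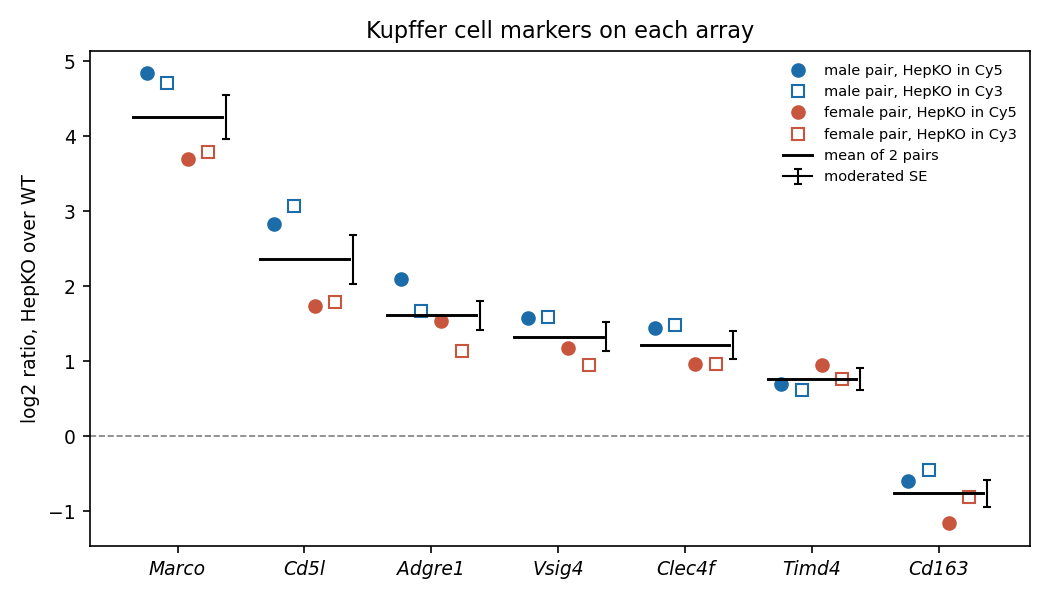
Log2 ratio of HepKO over WT (vertical axis) for the 7 measured markers on each of the 4 arrays, with the mean of 2 pairs as a bar and the moderated SE as an error bar. The arrays of a pair lie close together, at most 0.42 apart, and the ratios of Marco and Cd5l are over 1 log2 unit larger in the male than in the female pair.

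The size of the increase differed between the pairs. For Marco, Cd5l, Adgre1, Vsig4 and Clec4f the ratio was between 0.49 and 1.19 larger in the male pair, more than the 0.0042 to 0.42 by which the 2 dye orientations of a pair differed. For each of the 7 markers WT levels were higher in the female than in the male pair. With 1 replicate per pair these differences were not tested.

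Of 20 further genes enriched in Kupffer cells, all measured, 13 rose, none fell and 7 did not pass, with a median of 1.25. Siglec1, a sialic acid-binding receptor of tissue macrophages that interferon also induces, rose by 2.74 ± 0.26. Il18bp, a secreted inhibitor of interleukin-18 that is also interferon-induced, rose by 2.41 ± 0.28. Spic, a transcription factor of iron-recycling macrophages that also stands in the list of transcription factors below, rose by 2.40 ± 0.24. Nr1h3, which encodes LXR-alpha, a factor needed for Kupffer cell identity in mice, was at 0.0029 ± 0.14, a gene named here after its value was seen. Its mean level was 12.91 in both genotypes, and which cells of the preparation gave this signal was not tested.

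Genes shared by macrophages in general had the larger median. Of 18 measured pan-macrophage genes 15 rose and none fell, with a median of 2.23. The Fc receptor Fcgr1 was higher by 3.28 ± 0.41, the lysosomal protease Ctss by 3.26 ± 0.51 and Cybb, a subunit of the phagocyte oxidase, by 2.87 ± 0.25. Of 17 measured genes for monocytes and recruited or lipid-associated macrophages 10 rose and none fell, with a median of 1.98, 2.20 for the male and 1.23 for the female pair. The monocyte chemokine Ccl2 (5.10 ± 0.64), Plac8 (4.07 ± 0.34) and osteopontin (Spp1; 3.96 ± 0.41) led that list. In the male and then the female pair, Ccl2 was at 6.34 and 3.85, Plac8 at 4.69 and 3.45, and Spp1 at 3.20 and 4.72. With the scanner software's log ratios its median was 4.09. With probes well above background in both genotypes on 4 of 4 arrays it was 3.41, over 7 genes. Whether the Kupffer markers differ from either list was not tested.

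The CSF1 axis and macrophage transcription factors rose in part, 8 of 17 measured with none lower and a median of 0.92. Csf1, the growth factor ligand itself, rose by 1.63 ± 0.27, with 2.09 for the male and 1.16 for the female pair. Irf8, a factor of the monocyte lineage, rose by 2.04 ± 0.19.

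Some markers of other liver cells also rose. Sinusoidal endothelial markers had 6 of 14 higher and a median of 0.61, with 0.59 for the male and 0.99 for the female pair. They were led by Lyve1 (2.08 ± 0.16), Oit3 (1.19 ± 0.14) and Kdr (1.16 ± 0.15). Gpr182, Ehd3, Stab2, Tek and Fcgr2b did not pass, and were below 0 in the male and above 0 in the female pair. The summed intensity of the endothelial list was 18915 to 19320 in HepKO and 8994 to 13307 in WT. Such sums are set side by side only between genotypes, never between lists, and that of the 7 Kupffer markers was 45054 to 58421 in HepKO and 5742 to 15677 in WT. T and NK cell markers had 6 of 11 higher and a median of 1.08, led by granzyme B (Gzmb; 2.84 ± 0.35), Il2rb (2.24 ± 0.24, on 3 arrays) and Nkg7 (2.21 ± 0.19), with a summed intensity of 2466 to 3785 in HepKO and 776 to 1040 in WT. Their median was 2.89 with the scanner software's log ratios and 0.71 without male pair replicate 1. With probes above background throughout it was 2.21, over 3 genes. In WT 3 of 11 were above background on 4 of 4 arrays. Stellate cell markers had 4 of 11 higher and a median of 0.74, led by the collagen gene Col3a1 (2.14 ± 0.34), and summed to 17056 to 20711 in HepKO and 9634 to 10330 in WT. Neutrophil markers had 3 of 10 higher and a median of 0.97, led by the calprotectin subunit S100a9 (3.21 ± 0.18), and summed to 2403 to 5022 in HepKO and 797 to 1047 in WT. Their median was 1.43 for the male and 0.39 for the female pair, and 2.84 over both pairs with the scanner software's log ratios. With probes above background throughout S100a9 alone remained, so the value of 3.21 there is that of 1 gene. In WT 1 of 11 named on the array was above background on 4 of 4 arrays. Dendritic cell markers had 3 of 8 higher and a median of 0.43, led by the integrin Itgax (1.61 ± 0.14). They summed to 1153 to 1263 in HepKO and 630 to 794 in WT. Their median was 2.41 with the scanner software's log ratios and 0.84, over 5 genes, with probes above background throughout. Ms4a1, a B cell marker, was not well above background on any array in WT and did not pass (limma adjusted p = 0.127). None of these lists had a member called lower. The part of these cells in the Kupffer marker result was not tested.

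The labelled cell type was present at high signal. Of 12 hepatocyte markers 9 were measured, and none passed in either direction. Their summed intensity was 556480 to 1008778 in HepKO and 614228 to 763440 in WT. These sums lack Ahsg on male pair replicate 1 and Ass1 on male pair replicate 2, so they do not cover the same genes on each array. The median ratio was 0.086, and it was below 0 with median centring of each array in place of loess (-0.42), without female pair replicate 1 (-0.043) and on the arrays labelling HepKO with Cy3 (-0.093). Tat, an enzyme of tyrosine breakdown (-0.41 ± 0.18), Ass1 of the urea cycle (-0.36 ± 0.21, on 3 arrays) and antithrombin (Serpinc1; -0.27 ± 0.20) had the ratios farthest from 0.

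**Figure D3:**
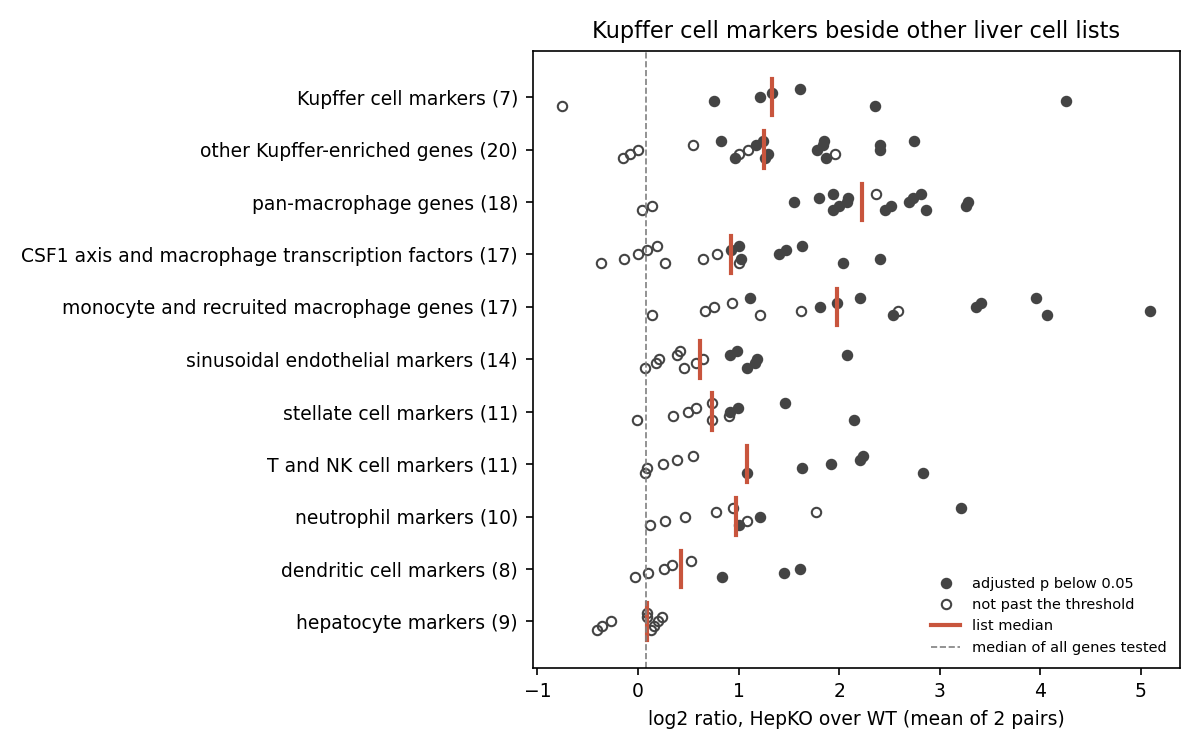
Log2 ratio of HepKO over WT (horizontal axis, mean of 2 pairs) of each measured gene in the Kupffer marker list and in lists for other cells, with the number measured in brackets, filled where the adjusted p was below 0.05. Red bars are list medians, 1.33 for the Kupffer cell markers, 2.23 for pan-macrophage genes and 0.086 for hepatocyte markers, and the dashed line is the median of all genes tested, 0.084.

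The genes with ratios on the 4 arrays most like the median of the 7 markers (1.58, 1.60, 1.18 and 0.97) were sought among all genes tested, by Euclidean distance over the 4 arrays. The 5 nearest were Jdp2 (distance 0.105), H2-DMa (0.121), Sh3kbp1 (0.140), Pip4k2a (0.144) and Grhl1 (0.150). They are listed as a description of these 4 arrays only.

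**Figure D4:**
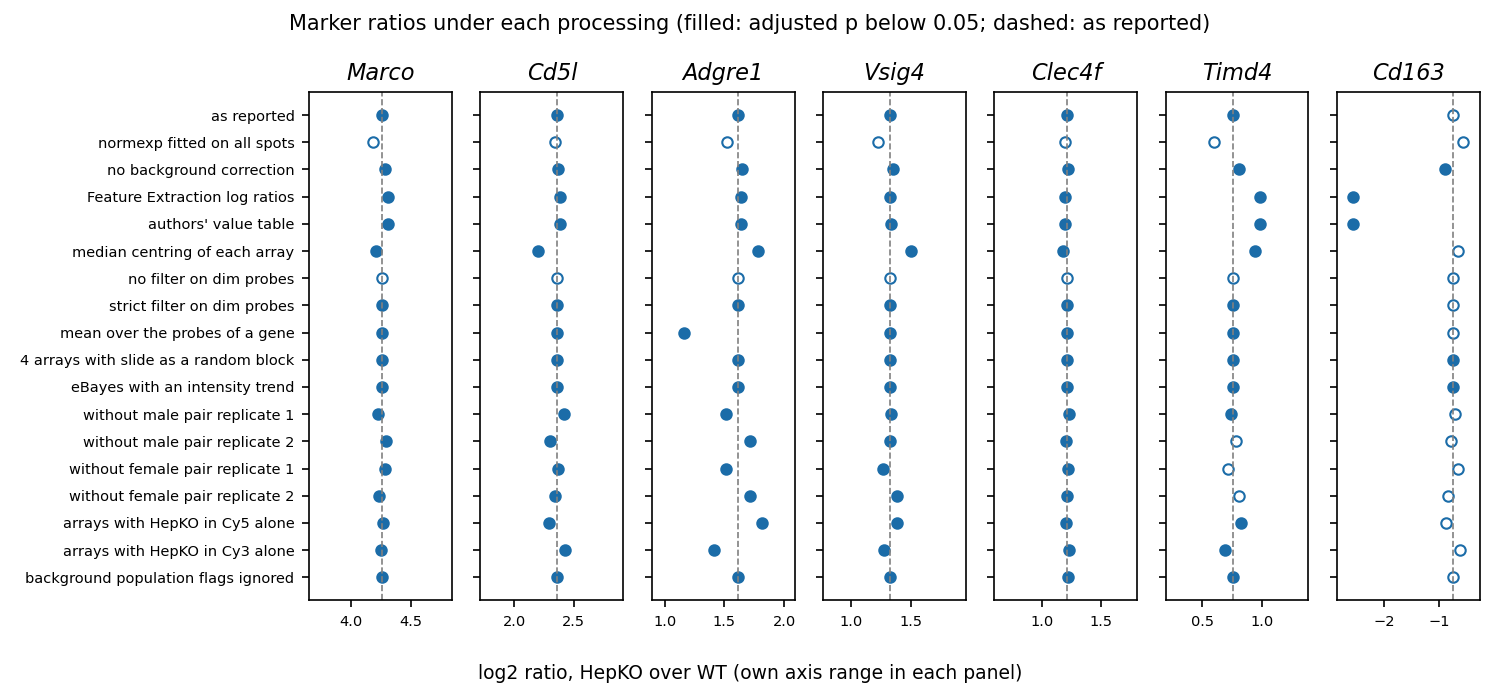
Log2 ratio of HepKO over WT (horizontal axis, own range in each panel) of the 7 markers as reported and under 17 other ways of processing the arrays, filled where the adjusted p was below 0.05. Signs were the same in all 17, the ratios of Marco stayed between 4.18 and 4.31, and those of Cd163 ran from -2.55 to -0.57.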

How the data were processed

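RNA of hepatocyte preparations was measured on 4 two-colour arrays (2 pairs of mice). The deposited intensity values are the mean pixel signal of each spot and the median of its local background in each channel, read with Agilent Feature Extraction 10.2.1.3, per the file headers. That software also wrote the deposited log10 ratios of red over green after subtracting background and normalizing dyes. A value table from the authors repeats these log10 ratios, turned to HepKO over WT (median 0 in every column). Both were used as alternatives. What else the authors did was not given in the sources used here.

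Any spot that the scanner software marked as uneven or as an outlier among its replicates, in signal or background, was left out (1465 to 2056 of 45018 per array). No spot was saturated. Signals were corrected with normexp (offset 50) and normalized by loess in limma 3.58.1 (R 4.3.3), with the 1639 control spots at weight 0. Levels per channel came from a further Aquantile step. A probe was kept (22591 of 41174) if well above background on both arrays of 1 pair in 1 genotype. RefSeq accessions named 22951 probes through a GRCm38.p6 table, and each gene was taken from its brightest kept probe. Dye orientations were averaged per pair, and an intercept was fitted with eBayes and Benjamini-Hochberg adjustment. There was 1 residual degree of freedom, with 2.97 more borrowed across genes. Where a spot was flagged, a pair rests on 1 array, which touched 1135 of 11325 genes and no Kupffer marker. A summed intensity leaves out such a gene on that array. The number of pairs limits the precision.

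Named genes were every marker, Pnpt1, the 3 largest absolute ratios of each other list and the 5 genes nearest the markers' profile. Of the B cell list 1 gene is given, and the list as a whole is not reported here. Nr1h3, Gpr182, Ehd3, Stab2, Tek, Fcgr2b, Cd5 and Cr1l were named after their values were seen. The markers and lists were chosen with earlier results of these data known. The fit was tested on simulated data. Alternatives covered background, normalization, filter, probe choice, variance model, slide as a block, and leaving out each array.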

Additional observations from a re-analysis of the deposited data

Results flagged for a closer look

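Pnpt1 was singled out because its brighter probe ran in opposite directions in the pairs, with log2 ratios of HepKO over WT of 0.18 (male pair) and -0.38 (female pair), each with the same sign on both arrays. The difference was not tested, since each pair is 1 replicate. The second Pnpt1 probe did not run in opposite directions, with -0.49 (male pair) and -0.55 (female pair). Nr1h3 also had opposite signs in the pairs, at -0.039 (male pair) and 0.045 (female pair) with the same sign on both arrays of each, and this difference was not tested either.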

How the results depend on the processing

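All 7 markers kept their sign under the 17 alternatives run, 1 of them (ignoring background population flags) chosen after seeing the data. The median of the 7 stayed between 1.21 and 1.50. In 2 settings limma called 0 markers, 0 genes of the other lists (77 as reported) and 0 of all genes in either direction (1284 higher and 368 lower as reported). They were normexp fitted on all spots (lowest adjusted p 0.0625, while 2925 genes had an unadjusted p below 0.05) and no filter on dim probes (0.0719 and 4541 genes). For the 6 markers that rose the adjusted p was 0.0789 to 0.143 in the first and 0.0725 to 0.103 in the second. Cd163 became the 1 marker called lower with no background correction, the Feature Extraction log ratios, the authors' value table, an intensity trend and the slide as a random block. With that block, which enters arrays of the same extracts as separate observations, 2400 genes were higher and 1240 lower. Lower genes numbered 567 with the Feature Extraction log ratios and 697 where only arrays labelling HepKO with Cy3 entered. Leaving out 1 array gave 5 to 6 markers higher, 982 to 1362 genes higher and 247 to 448 lower; without male pair replicate 2 the lower genes were 247. Serpinc1 was at 0.027, above 0, where only arrays labelling HepKO with Cy5 entered. Nr1h3, near 0 as reported, was at -0.0052 there, at -0.0068 with normexp on all spots, at -0.14 with median centring, and at -0.0075 to 0.013 with a single array left out. The cause of these changes was not tested. The median of all genes was 0.084, and 0.18 with median centring. The reported fit is paired, because the ratio within each array is taken between the partners of a pair. The replicate numbers only name arrays, so no further pairing was possible. Dim signals limit Cd163 most, as its HepKO signal exceeded local background by 17.8 to 21.6.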

Other observations

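Relatives of the markers were measured beside them. Of 8 genes for other proteins with SRCR domains, as in Marco, Cd163 and Cd5l, 6 were higher and none lower, with a median of 1.38. Of all genes tested 11.3% were higher. In WT 5 of the 9 SRCR genes named on the array were above background on 4 of 4 arrays. Cd5, which was called higher, was above background in WT on 0 of 4 arrays. Lgals3bp, a secreted galectin-binding glycoprotein, was at 3.15 ± 0.23, the macrophage scavenger receptor Msr1, which is also in the pan-macrophage list, at 1.94 ± 0.16 and the membrane protease Tmprss2 at 1.43 ± 0.18. Of 12 paralogs of the Tim, Clec4 and Adgre families 6 were higher and none lower, with a median of 1.05. In WT 6 of these 12 were above background on 4 of 4 arrays. Adgre5, which encodes the leukocyte antigen CD97, was at 2.49 ± 0.14, and the C-type lectin genes Clec4n, also in the monocyte list, at 1.98 ± 0.14 and Clec4a2 at 1.80 ± 0.17. With the Feature Extraction log ratios the medians of these lists were 2.19 and 2.42.

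Of 8 genes for complement receptors and related proteins other than Vsig4, 3 were higher and none lower, with a median of 0.57. Of all genes tested 11.3% were higher. In WT 4 of the 8 were above background on 4 of 4 arrays. Cr1l was below 0 on 4 of 4 arrays, at -0.53 ± 0.20, and did not pass. Cd93 was at 2.41 ± 0.14, the integrin beta chain Itgb2 at 2.36 ± 0.24 and Itgax, also a dendritic cell marker, at 1.61 ± 0.14. The median of this list ran from 0.26 with normexp fitted on all spots to 2.42 with the Feature Extraction log ratios.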
